A study of Mus musculus with 3 samples.

Results

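Muscle actins and the proteins that bind them were followed in mouse embryonic stem cells (ESCs) of the E14tg2a line, as 10 genes among the 39179 of the deposited gene table. They were picked by symbol as contractile genes known to be driven by serum response factor (SRF): the actins *Acta1*, *Acta2*, *Actc1* and *Actg2*, the actin-binding genes *Tagln* and *Cnn1*, the myosin light chain *Myl9*, the tropomyosins *Tpm1* and *Tpm2* and the crosslinker *Actn1*. They were picked with the levels of several of them in these libraries already known, so the values below are a description and none was tested. RNA was sequenced from 3 cultures in serum with leukaemia inhibitory factor (LIF), with 1 library per condition: a *Zmym2* knockout (KO), *Zmym2*-overexpressing cells (OE) and wild type cells (WT). The KO line was 1 clone in which Cas9 had placed frameshifts in both *Zmym2* alleles. The OE cells carried a stably integrated PiggyBac *Zmym2* transgene and had passed drug selection, and the sources used here do not name its promoter. No empty-vector library was analysed, so cloning, transfection and selection cannot be told apart from the *Zmym2* level. Groups follow the library titles, while the line descriptions stored with the KO and OE libraries are exchanged relative to those titles.

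*Zmym2* itself, a zinc finger gene, had 4370 normalised counts in KO, 57139 in OE and 7956 in WT, so it was highest in the library titled OE. A frameshift need not lower a transcript, so the KO level does not check that label. Normalised counts are the reads of a gene divided by a size factor for the library, and the gene reads came to 46995766 in KO, 41840774 in OE and 50120551 in WT. Intervals are exact 95% intervals, Poisson for levels and Clopper-Pearson for ratios and shares. They cover counting error only, as reads are not independent molecules and no condition had a second library. The ESC state was checked on 10 markers, of which 0 were 2-fold apart from WT in either library, although all 10 were below WT in OE: *Pou5f1* (Oct4) had 34070 normalised counts in KO, 31522 in OE and 36973 in WT. Over all genes that averaged 10 or more, 12.0% were 2-fold higher and 4.38% lower in OE. In KO 4.77% were higher and 4.09% lower, so 0 of 10 is by itself a weak check. *Hprt*, which E14tg2a cells are known to lack in functional form, had 9 reads in KO, 16 in OE and 13 in WT.

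Actin filaments carry the contraction of every muscle. *Acta1* encodes the actin of skeletal muscle, *Actc1* that of heart muscle, and *Acta2* and *Actg2* those of vascular and enteric smooth muscle, whereas *Actb* and *Actg1* encode the cytoplasmic actins of all cells. Many of these genes hold CArG boxes, short sites with a run of A and T between CC and GG that bind SRF. When actin monomers are used up by polymerisation, the MRTF coactivators that these monomers hold back enter the nucleus and join SRF, so that stretched or spread cells make more contractile protein. In early embryos several of these genes are known to come on outside muscle, in migrating mesoderm and in cells undergoing epithelial-mesenchymal transition.

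CArG boxes were looked for in RefSeq promoters of GRCm38.p6, which cover 250 bases before and 50 bases after each start site and were matched for 8 of the 10 genes, *Tagln* and *Actg2* being the others. The box reads the same way on both strands, so 1 search covers both. An exact box was present in 3 of the 8 promoters, against 1.63% of 32851 promoters, and a box with at most 1 mismatch in 5 of 8, against 21.1%. The stretches that hold the exact boxes, and the pair of boxes with 1 mismatch each in *Acta2*, are shown 5′ to 3′ with the box in capitals, as the sites through which SRF is known to act. SRF targets are commonly known by this site, so its presence is no independent finding.
Acta1, chr8:123894824-123894863, minus strand, box from base -73: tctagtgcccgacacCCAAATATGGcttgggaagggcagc
Actc1, chr2:114052898-114052937, minus strand, box from base -47: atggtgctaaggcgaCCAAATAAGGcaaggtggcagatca
Myl9, chr2:156775288-156775327, plus strand, box from base -161: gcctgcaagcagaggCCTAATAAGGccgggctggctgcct
Acta2, chr19:34255438-34255467, minus strand, box from base -84: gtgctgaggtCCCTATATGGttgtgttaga
Acta2, chr19:34255388-34255417, minus strand, box from base -34: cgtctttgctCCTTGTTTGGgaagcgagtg
Positions are counted back from the RefSeq start site. GENCODE M21 places transcript starts of *Acta2* further upstream, so both *Acta2* stretches lie within an annotated exon there. No box with at most 1 mismatch was in the windows of *Cnn1*, *Tpm2* and *Actn1*. CATTCC, a site bound by TEAD factors, was found on either strand in 3 of the 8 promoters (14.7% of all), those of *Acta1*, *Acta2* and *Tpm1*. TATAAA was found in 2 of 8 (13.6% of all), those of *Acta1* and *Actc1*.

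**Figure D1:**
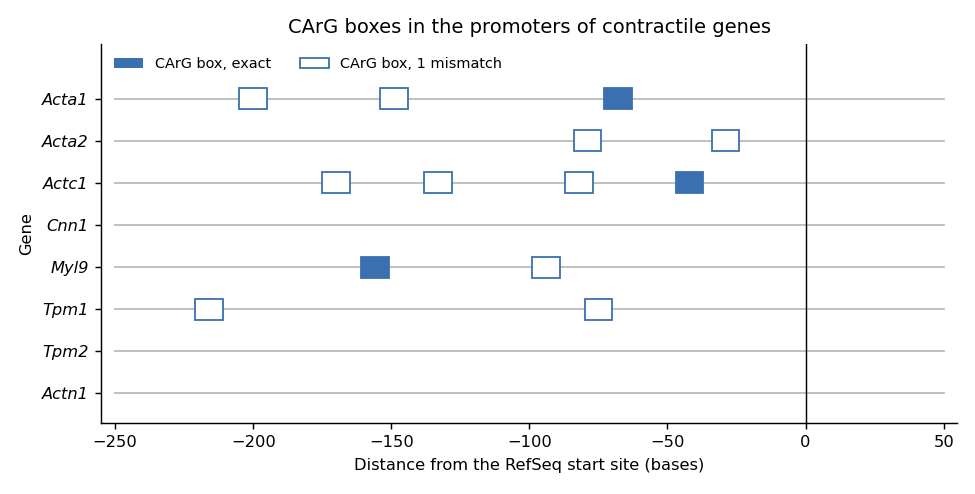
Each line is the promoter of 1 gene, drawn by distance in bases from the RefSeq start site at 0, with filled bars for exact CArG boxes and open bars for boxes with 1 mismatch. *Acta1*, *Actc1* and *Myl9* hold exact boxes, which begin at -73, -47 and -161, and the lines of *Cnn1*, *Tpm2* and *Actn1* are empty.

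All 10 genes had their highest level in the OE library, as did 40.8% of the 12896 genes that averaged 50 or more normalised counts over the libraries. Of the 10, 9 reached that mean and *Actg2* did not. *Actc1* reached it only through the OE library and would not have done so on KO and WT alone. Among the 9, the ratio of OE to WT ran from 1.96 for *Actn1* to 29.4 for *Actc1*. With a pseudocount of 1, 8 of the 9 lay 2-fold or more above WT in OE, against a background of 9.74% of all genes, and 0 lay 2-fold below it (background 3.12%). In KO, 4 of the 9 were at least 2-fold lower than in WT, against a background of 3.09%, and 0 were 2-fold higher (background 2.43%). The lower ones were *Acta2*, *Tagln*, *Acta1* and *Actc1*. The median log2 ratio of the 9 genes was 2.62 in OE and -0.90 in KO, where the median of all genes at that level was -0.02 and -0.03. Both comparisons use the same WT library. In such bulk RNA, more cells of a type and more RNA per cell cannot be told apart.

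**Figure D2:**
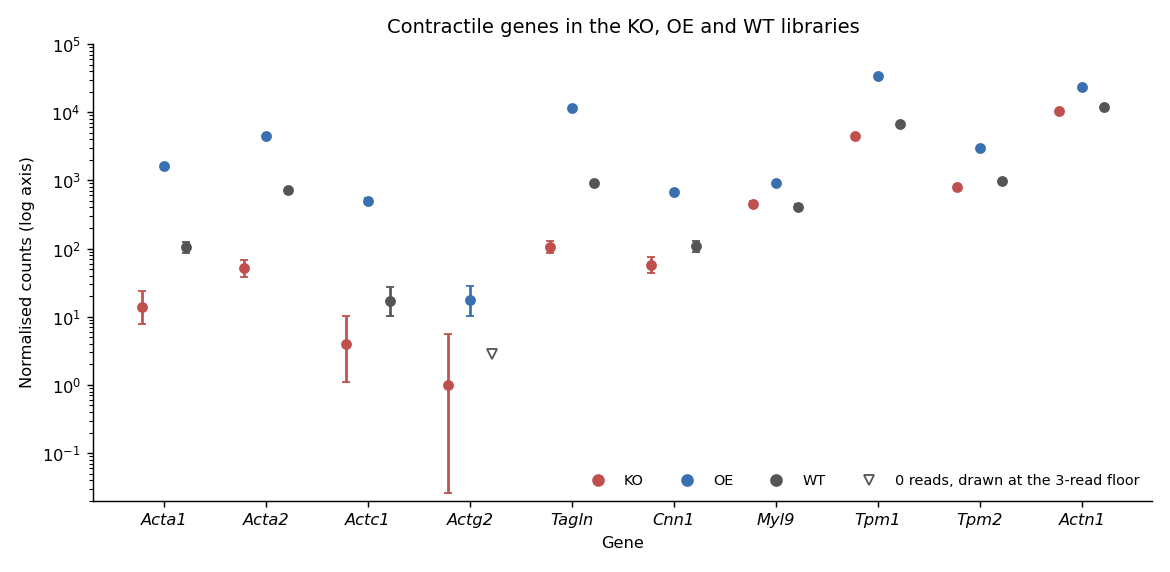
Levels of the 10 genes in normalised counts on a log axis, with 1 point per library (KO, OE and WT from left to right) exact 95% Poisson intervals, and an open triangle at the level of 3 reads for *Actg2* in WT, which had 0. The OE point is the highest for every gene, and the gap between OE and KO is widest for *Acta1*, *Acta2*, *Actc1* and *Tagln*.

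*Acta2*, smooth muscle actin (ENSMUSG00000035783, chromosome 19 of GRCm38, 34241090 to 34255590), had 51.5 normalised counts in KO (38.4 to 67.7), 4408 in OE (4272 to 4546) and 712 in WT (662 to 765). The intervals of the 3 libraries did not overlap. Its ratio was 0.0723 in KO (0.0534 to 0.0961) and 6.19 in OE (5.72 to 6.70), which was place 5 from the lowest of 12896 genes in KO and place 253 from the highest in OE. The KO interval of *Acta2* overlapped those of *Tagln*, *Acta1* and *Actc1* given below, that of *Tagln* only narrowly. The order of these 4 in KO was not tested.

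*Acta1*, skeletal muscle actin (ENSMUSG00000031972, chromosome 8, 123891769 to 123894751), had 14.1 normalised counts in KO (7.73 to 23.7), 1601 in OE (1520 to 1686) and 104 in WT (85.4 to 125). This is a ratio of 0.136 in KO (0.072 to 0.238) and 15.4 in OE (12.7 to 18.9). *Acta1* lies on a chromosome whose 686 genes at this level had a median ratio of 0.847 in KO and 0.882 in OE. Genes close to *Acta1* were not examined apart from the rest of the chromosome. *Actc1*, heart muscle actin (ENSMUSG00000068614, chromosome 2, 114047282 to 114053548), was read 4 times in KO, 454 times in OE and 18 times in WT. Its levels were 4.04 normalised counts in KO, 500 in OE and 17.0 in WT. The OE ratio of 29.4 (18.4 to 50) was in place 8 from the highest of 12896 genes, while the KO ratio of 0.238 has a wide interval (0.0585 to 0.721) because of the few reads. *Actg2*, enteric smooth muscle actin (ENSMUSG00000059430, chromosome 6, 83512905 to 83536265), stayed close to the detection limit, with 1 read in KO, 16 in OE and 0 in WT. Its OE level was at least 6.21-fold higher than the 3 reads that a count of 0 allows in the WT library. The exact interval of the ratio, which also covers the counting error of the 16 OE reads, began at 4.49, and no fold is given for KO.

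The actin genes resemble each other closely, with 81.9% to 88.7% identical bases between the coding sequences of any pair of the 4 muscle actins, *Actb* and *Actg1*. Their transcripts are nevertheless distinct over the length of a short read. Of all stretches of 50 bases, 2.02% in *Acta1*, 0.326% in *Acta2* and 0% in *Actc1* and *Actg2* occur in another gene of GENCODE M21 on the same strand. The highest shares among the actins were 9.12% in *Actb* and 37.4% in *Actg1*, which have pseudogenes. The sources used here do not say how reads matching several genes were counted, so the level of *Actg1* is uncertain, as are those of *Tpm3*, *Myl12a* and *Myl12b* below. Smaller shares were found in *Tpm4* (11.7%), *Cnn3* (10.3%) and *Myl6* (8.38%), so their levels are uncertain too.

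*Tagln*, which encodes transgelin (SM22), an actin-binding protein of smooth muscle (ENSMUSG00000032085, chromosome 9, 45929619 to 45936058), had 105 normalised counts in KO (85.8 to 127), 11495 in OE (11276 to 11718) and 929 in WT (872 to 989). The ratio was 0.113 in KO (0.0915 to 0.139) and 12.4 in OE (11.6 to 13.2). The exons of *Tagln* overlap those of the protease gene *Pcsk7* and of *Gm48529* on the opposite strand over 58.3% of its 50-base stretches. The authors counted reads by strand, and *Pcsk7* had 458 normalised counts in KO, 764 in OE and 635 in WT, a far narrower range than that of *Tagln*. *Cnn1*, calponin 1, which binds actin and tropomyosin in smooth muscle (ENSMUSG00000001349, chromosome 9, 22099216 to 22109630), had 57.6 normalised counts in KO (43.6 to 74.6), 671 in OE (619 to 727) and 109 in WT (89.7 to 130). It was 6.18-fold higher in OE (5.05 to 7.61). In KO its ratio of 0.53 (0.379 to 0.734) was just short of 2-fold lower.

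The remaining genes are also known to be expressed outside muscle. *Tpm1*, a tropomyosin that covers actin filaments (ENSMUSG00000032366, chromosome 9, 67022590 to 67049406), had 4436 normalised counts in KO, 34093 in OE and 6643 in WT, with a ratio of 0.668 in KO (0.643 to 0.693) and 5.13 in OE (5 to 5.27). *Tpm2*, a second tropomyosin (ENSMUSG00000028464, chromosome 4, 43514711 to 43523765), had 789 in KO, 2990 in OE and 972 in WT, with a ratio of 0.811 in KO (0.738 to 0.891) and 3.08 in OE (2.86 to 3.31). Tropomyosin genes make muscle and non-muscle isoforms by splicing, which counts per gene do not separate. *Myl9*, a regulatory light chain whose phosphorylation switches on myosin II (ENSMUSG00000067818, chromosome 2, 156775420 to 156781658), had 451 normalised counts in KO, 909 in OE and 407 in WT. It was the only one of the 9 whose KO level was above WT, at a ratio of 1.11 with an interval that includes 1 (0.967 to 1.27), and its OE ratio was 2.23 (1.98 to 2.51). *Actn1*, alpha-actinin 1, which crosslinks actin filaments at adhesions and stress fibres (ENSMUSG00000015143, chromosome 12, 80167547 to 80260371), had 10429 in KO, 23692 in OE and 12101 in WT. Its ratio of 1.96 in OE (1.92 to 2) was just short of 2-fold, and that in KO was 0.862 (0.840 to 0.885). The tropomyosins, *Myl9* and *Actn1* thus had ratios nearer to 1 in both libraries than *Tagln*, *Acta1*, *Acta2* and *Actc1*. In KO the wide interval of *Actc1* (0.0585 to 0.721) covers the ratio of *Tpm1*, so the order of that pair was not resolved.

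**Figure D3:**
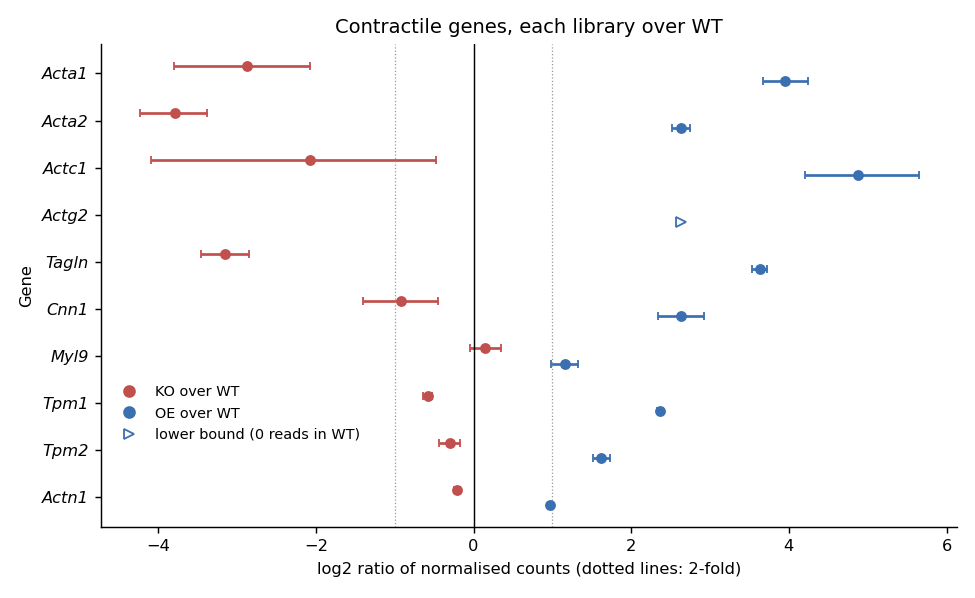
log2 ratio of normalised counts of KO over WT (upper point of each pair) and OE over WT (lower point) for each gene, with exact 95% counting intervals and dotted lines at 2-fold. *Actc1* reaches 29.4-fold in OE, *Acta2* a ratio of 0.0723 in KO, and *Actg2*, with 0 reads in WT, has an open triangle where its OE level stands over the limit of 3 WT reads, at 6.21-fold.

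The direct pair of OE and KO does not use the WT library. All 9 genes that reached the minimum mean were at least 2-fold higher in OE than in KO, against a background of 12.9%, and 0 were 2-fold lower (background 5.47%). *Actc1* was 124-fold higher (48.0 to 456), *Acta1* 113-fold (67.3 to 208), *Tagln* 109-fold (90.2 to 134) and *Acta2* 85.6-fold (64.9 to 115). These intervals overlap, so the order of the 4 genes was not resolved by the reads. They ranked between 11 and 19 from the highest of 12896 genes. *Cnn1* followed at 11.7-fold (8.88 to 15.6) and *Tpm1* at 7.69-fold (7.45 to 7.93). *Tpm2* was 3.79-fold, *Actn1* 2.27-fold and *Myl9* 2.02-fold higher, and the interval for *Myl9* reached below 2 (1.8 to 2.27). *Actg2*, with 1 read in KO, had a ratio of 17.4 (2.71 to 731).

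Levels of different genes were compared per kilobase of annotated exon. In WT, *Actn1* was the most abundant at 2187 normalised counts per kilobase, followed by *Tpm1* at 1024 and *Tagln* at 467. *Myl9*, *Tpm2* and *Acta2* came next at 350, 334 and 324 per kilobase, with overlapping intervals, and *Actc1* had 10.5. In OE the order was different: *Tagln* was first at 5782 per kilobase, ahead of *Tpm1* at 5257 and *Actn1* at 4282, and *Acta2* and *Acta1* had 2007 and 1042. The intervals of *Acta1* and *Tpm2* (1028) overlapped there. In KO, *Tagln* was in place 5 with 52.8 per kilobase and *Acta2* in place 6 with 23.5, below *Myl9* (388) and *Tpm2* (271). The intervals of *Acta2* and *Cnn1* (21.0) overlapped in KO, as did those of *Acta1* and *Actc1* (9.21 and 2.50) and of *Actc1* and *Actg2* (0.649). Even in OE, all 4 muscle actins together stayed far below *Actb*, at 72374 per kilobase in OE.

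The share that each muscle gene took of the reads of its own family does not depend on how the libraries were scaled. The 4 muscle actins made up 0.0401% of the reads of these genes with *Actb* and *Actg1* in KO (0.0313 to 0.0507), 2.95% in OE (2.88 to 3.02) and 0.494% in WT (0.462 to 0.528). *Tagln* made up 2.38% of the transgelin reads in KO (1.95 to 2.88), 45.6% in OE (45.0 to 46.3) and 14.9% in WT (14.0 to 15.8). The actin and transgelin shares were thus lowest in KO and highest in OE, with intervals that do not overlap. *Tpm1* and *Tpm2* together held 31.9% of tropomyosin reads in KO, 59.8% in OE and 36.3% in WT. *Cnn1* held 0.281% of calponin reads in KO, 1.79% in OE and 0.501% in WT, and *Actn1* 21.1% of alpha-actinin reads in KO, 32.2% in OE and 23.2% in WT. *Myl9* had another order, with 3.59% of the reads of *Myl9*, *Myl12a* and *Myl12b* in KO (3.27 to 3.93), 4.16% in OE (3.89 to 4.45) and 2.91% in WT (2.65 to 3.19), so that its share in KO was above that in WT.

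**Figure D4:**
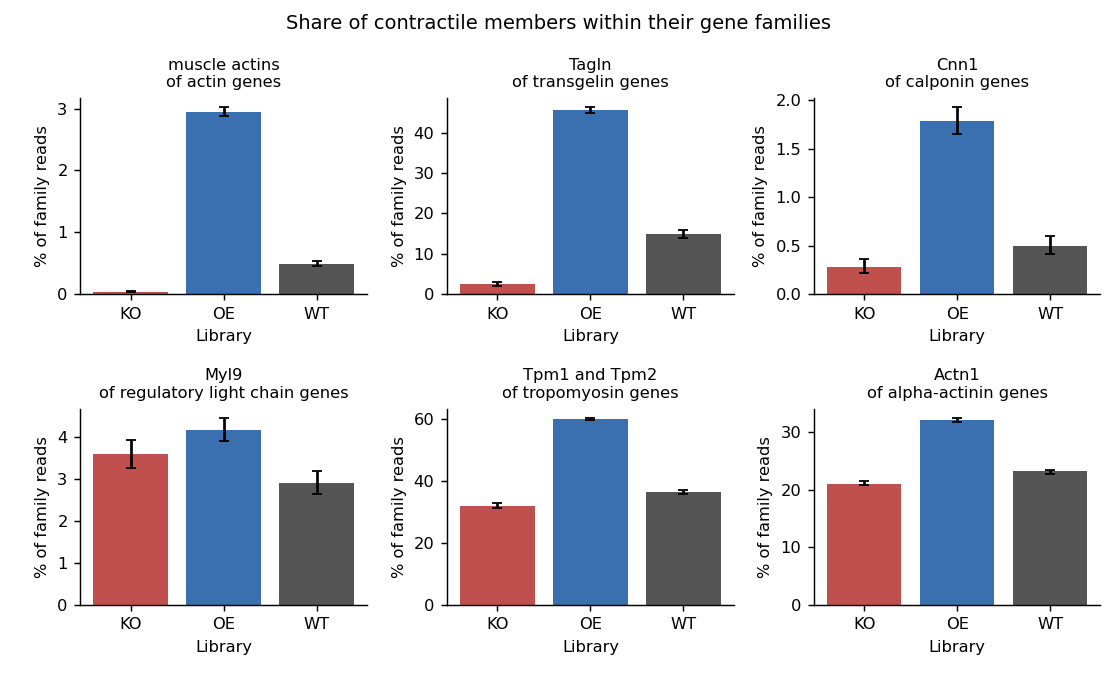
Percent of the reads of each gene family that fell on the contractile member or members, for the KO, OE and WT libraries, with exact 95% binomial intervals and axes that start at 0. *Tagln* reaches 45.6% of transgelin reads in OE against 14.9% in WT, and *Myl9* is the family whose KO bar lies above WT.

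Some paralogues were higher in OE as well. Of 15 paralogues of the group, 3 lay 2-fold or more above WT in OE, as did 12.0% of the 15688 genes that averaged 10 or more, and 1 lay below (background 4.38%). In KO 0 were 2-fold apart in either direction (4.77% of all genes were higher and 4.09% lower), and the median log2 ratio was 0.35 in OE and -0.24 in KO, where that of all genes at this level was 0.00 and -0.02. The 3 were *Tpm4*, a non-muscle tropomyosin, at 3.32-fold (3.20 to 3.44), the calponin *Cnn2* at 2.69-fold (2.61 to 2.78) and *Tagln2* at 2.65-fold (2.57 to 2.74). *Actn3*, the alpha-actinin of fast skeletal muscle, was the lower one, with 599 normalised counts in OE and 1373 in WT (0.436, 0.394 to 0.482). *Actn2*, the alpha-actinin of heart and skeletal muscle, had 225 in KO, 248 in OE and 249 in WT. The cytoplasmic actin *Actb* had a ratio of 1.24 in OE and *Actg1* of 1.73. *Myl12a* and *Myl6* were at 1.98 and 1.8 in OE, *Cnn3*, *Actn4* and *Tpm3* between 1.25 and 1.41, and *Myl6b* at 1.02. *Myl12b* and *Tagln3* were below WT, at 0.918 and 0.6.

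Some other genes of the actin cytoskeleton and its adhesions were also higher in OE. Of 20 such genes, 8 had OE levels 2-fold or more above WT (12.0% of all genes that averaged 10 or more) and 0 below it (4.38%), with a median log2 ratio of 0.83. *Tgfb1i1* (Hic-5), an adaptor of focal adhesions, had 103 normalised counts in KO, 2345 in OE and 229 in WT, or 10.3-fold more in OE (8.98 to 11.8). *Cald1*, caldesmon, which binds actin and myosin, had 811 in KO, 22233 in OE and 2619 in WT (8.49-fold in OE, 8.16 to 8.84). The LIM protein gene *Csrp1* was 7.18-fold and the filamin gene *Flnc* 6.87-fold higher. In KO, 3 of the 20 were at least 2-fold lower (4.09% of all genes), namely *Cald1* (0.310), *Tgfb1i1* (0.451) and *Synpo*, and the median was -0.28.

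*Srf* and the genes of its MRTF coactivators were less than 2-fold apart from WT in both libraries. *Srf* had 3558 normalised counts in KO, 5447 in OE and 3711 in WT, a ratio of 1.47 in OE (1.41 to 1.53) and 0.959 in KO. Its coactivator genes *Mkl1* and *Mkl2*, which encode MRTF-A and MRTF-B, had ratios of 1.21 and 1.13 in OE and 0.927 and 1.07 in KO. Their activity is known to be set by where the proteins are in the cell, which RNA counts do not measure. Of 11 factors and cofactors, 3 lay 2-fold or more above WT in OE (12.0% of all genes, list median 0.55), and 2 of these 3, *Fhl2* and *Myocd*, lay 2-fold or more below it in KO (4.09% of all genes, list median -0.14). *Fhl2*, a LIM cofactor that is itself a target of SRF, had 11.1 normalised counts in KO, 364 in OE and 51.0 in WT. *Myocd*, myocardin, the SRF coactivator of heart and smooth muscle, was at the low end with 2 reads in KO, 48 in OE and 8 in WT, a ratio of 6.99 in OE (3.28 to 17.1) and an interval that includes 1 in KO (0.0277 to 1.34). *Myocd* reached the minimum mean for lists only through the OE library. The third of the 3 was *Elk3*, an SRF partner, at 2.28-fold in OE. The TEAD genes *Tead4* and *Tead1* were at 1.74 and 1.67 in OE.

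Genes of the striated sarcomere lay on both sides of WT. Of 18 that averaged 10 or more among 24 listed, 4 were 2-fold or more above WT in OE (*Nebl*, *Tnnc1*, *Tnnt3* and *Myl3*) and 6 below it, against 12.0% above and 4.38% below over all genes, with a median log2 ratio of -0.49. *Myl3* had 20 reads in OE against 8 in WT, and reached the mean of 10 only through the OE library. Of the 18, 3 were higher in KO (*Neb*, *Myh3* and *Tnnc2*) and 1, *Tnnc1*, was lower, against 4.77% and 4.09% over all genes, with a median of 0.00. *Tnnc1* had 6 reads in KO against 15 in WT, and the interval of its ratio includes 1 (0.136 to 1.17). *Tnnc2* had 28 reads in KO against 11 in WT. *Neb*, the giant thin-filament protein nebulin, ran opposite to *Acta1*, with 304 normalised counts in KO, 34.1 in OE and 82.2 in WT, a ratio of 3.70 in KO (2.90 to 4.75) and 0.415 in OE (0.266 to 0.632). *Tnnt1*, slow skeletal troponin T, was at 0.447 in OE, and *Myh3*, embryonic myosin heavy chain, at 2.20 in KO and 0.522 in OE. Of the smooth muscle list, 13 of 14 genes averaged 10 or more. Of these, 5 lay 2-fold or more above WT in OE, with *Cald1* among them, and 0 below it, against 12.0% and 4.38% over all genes, and the median was 0.51. *Itga8*, an integrin of smooth muscle and mesenchyme, was 7.33-fold higher, the actin nucleator gene *Lmod1* 5.05-fold, the intermediate filament gene *Synm* 2.51-fold, and the channel subunit gene *Kcnmb1* had 57 reads in OE against 2 in WT. *Kcnmb1* reached the mean of 10 only through the OE library. In KO 2 of the 13 were lower (*Cald1* and *Lmod1*) and 1, *Kcnmb1*, was higher on few reads. Over all genes 4.09% were lower and 4.77% higher, and the list median was -0.17. *Myh11*, the myosin heavy chain that defines mature smooth muscle, had 13 reads in KO, 12 in OE and 14 in WT, *Pln* had 0 in all of them, and *Des*, desmin, had a ratio of 1.43 in OE.

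Many fibroblast markers were also higher in OE. Of 15 markers, 11 lay 2-fold or more above WT in OE and 0 below it (median 2.32), against 12.0% and 4.38% over all genes. The other 4, *Col1a2*, *Thy1*, *Pdgfrb* and *Fbln1*, had ratios between 0.849 and 1.7. Among the 11, *Lum*, *Postn*, *Prrx1* and *S100a4* reached the mean of 10 only through the OE library. In KO, *Col1a1*, *Col1a2*, *Col3a1*, *Col6a1* and *Postn* were 2-fold or more lower and *Dcn* and *Lum* higher (median -0.50), against 4.09% lower and 4.77% higher over all genes. Their summed level was 3496 normalised counts in KO, 13179 in OE and 4034 in WT. *Col1a1*, a fibrillar collagen gene, had 74.8 in KO, 3077 in OE and 674 in WT, and *Col1a2*, its partner chain, had a ratio of 1.7 in OE and 0.131 in KO. *Col3a1* had 0 reads in KO, 901 in OE and 82 in WT. *Postn* was also at 0 reads in KO, but against only 3 in WT. The interval of its KO ratio includes 1 (0 to 2.59), so a lower level in KO is not shown. *Lum* was at 0 reads in WT. *Dcn*, decorin, a matrix proteoglycan gene of fibroblasts, was above WT in both libraries, at 23.5-fold in OE (10.5 to 65.3) and 3.92-fold in KO (1.54 to 11.8), on 6 reads in WT. Their part in the values of the contractile genes was not tested.

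**Figure D5:**
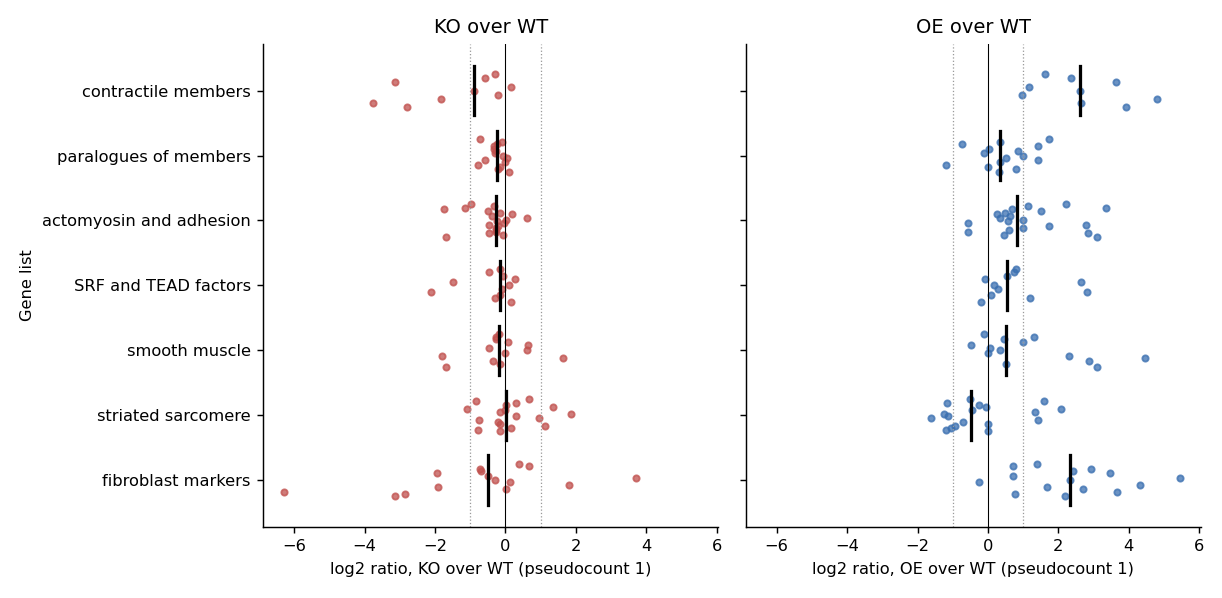
log2 ratio to WT of every gene of the lists shown that averaged 10 or more normalised counts, KO on the left and OE on the right, with 1 point per gene, a black bar at each list's median and dotted lines at 2-fold. In OE the contractile genes have a median of 2.62 and the fibroblast markers of 2.32, while the striated sarcomere genes have a median of -0.49.

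A search covered 11886 named genes that averaged 50 or more normalised counts over the libraries. The genes with ratios nearest to those of *Acta2* were found by distance over the log2 ratios of KO and OE to WT. They were *Pappa*, a protease gene, at a distance of 0.351, the collagen gene *Col8a1* (0.567), the protease gene *Prss23* (0.586), *Col1a1* (0.75) and *Tnc*, the matrix protein tenascin C (0.812). *Prss23* had 11.1 normalised counts in KO, 1675 in OE and 182 in WT. *Pappa*, *Col8a1* and *Tnc* had at most 4 reads in KO. Nearest to *Actc1* were the matrix gene *Efemp1* (0.158), the homeobox gene *Hoxd9* (0.161), the signal *Wnt3* (0.168), *Mal*, a membrane protein gene (0.280), and *Wnt10a* (0.289). *Hoxd9*, *Mal* and *Wnt10a* had 1 or 2 reads in KO and 6 to 10 in WT, and *Actc1* itself had 4 in KO. *Efemp1* had 11.1 in KO, 1085 in OE and 37.8 in WT. The likeness rests on 2 ratios from 3 libraries that share WT. *Pappa*, *Col8a1*, *Tnc* and all of the genes nearest to *Actc1* reached the mean of 50 only through the OE library. For these genes a high OE ratio was partly built into the search.

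The exact CArG boxes of other genes were set beside the OE values. Of 137 other genes with such a box that averaged 50 or more normalised counts, 10.2% lay 2-fold or more above WT in OE, against 9.41% of all 9386 genes with a promoter in the table. In KO 2.19% were at least 2-fold lower, against 2.80%. The median log2 ratio was -0.03 in OE and -0.10 in KO, against -0.02 and -0.03 over all 9386 genes. Between OE and KO, 16.8% of the 137 genes lay 2-fold or more higher in OE, against 12.6% of the 9386. Within the contractile group, the OE ratios to WT of the genes with an exact box were 29.4 for *Actc1*, 15.4 for *Acta1* and 2.23 for *Myl9*. Those of the genes with only a box of 1 mismatch were 6.19 for *Acta2* and 5.13 for *Tpm1*, and those of the genes with no box in the window were 6.18 for *Cnn1*, 3.08 for *Tpm2* and 1.96 for *Actn1*. No relation between box and ratio was tested.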

How the data were processed

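RNA-seq of 3 libraries of E14tg2a ESCs, 1 per condition, was used. After removal of ribosomal RNA the authors prepared directional libraries, trimmed the reads with Trim Galore, aligned to GRCm38/mm10 with TopHat2, counted with featureCounts and normalised with DESeq2. The deposited signal values are read counts per gene divided by a size factor, and the authors' stated division by length is not seen in them: 100% of values were whole multiples of 1 read (tolerance 1e-06). The sources used here do not name the annotation release that was counted on. A sheet with 4 columns of levels and a table of repeat families with 3 were not used; the sheet also holds the authors' own ratios to WT.

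Reads were recovered by dividing by the value of 1 read (1.01 in KO, 1.10 in OE, 0.945 in WT). With 1 library per group no count test was run and no p-value computed. Genes 2-fold apart were counted with a pseudocount of 1 among genes averaging 50 or more over the libraries, or 10 or more for lists. A count of 0 allows 3 reads. Members and gene lists (paralogues, SRF and TEAD factors, actomyosin and adhesion, smooth muscle, striated sarcomere, muscle regulators, fibroblast, endothelial and ESC markers, housekeeping) were chosen with earlier results of these data known, and 1 further list is not reported here. *Cald1*, *Mylk*, *Actn2* and *Actn3* are on more than 1 list. Named were all members and paralogues, up to 4 genes per list with the largest ratios among those reaching 100 normalised counts in a library, the 5 genes nearest to *Acta2* and to *Actc1* without predicted names, and, after their values were seen, the coactivators, genes in counts of 5 or fewer and defining markers. *Synpo*, *Kcnmb1*, *Myocd*, *Srf*, *Mkl1* and *Mkl2* are among the last. Positions and exon lengths came from GENCODE M21, which is on the same build. Alternatives were other scalings (TMM factors from edgeR 4.0.16), pseudocounts, minimum levels and folds. Python 3.11.15, numpy 2.4.6, pandas 2.3.3, scipy 1.17.1, matplotlib 3.10.9, biopython 1.88 and R 4.3.3 were used.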

Additional observations from a re-analysis of the deposited data

How the results depend on the processing

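All 10 contractile genes had their highest level in OE under each of 4 other scalings (total gene reads, a housekeeping list without *Actb*, *Gapdh* and TMM factors), and no ratio of a member changed direction under these scalings or other pseudocounts. The count at least 2-fold apart in OE stayed between 7 and 9 of the members tested under other scalings, pseudocounts, minimum levels and folds from 1.5 to 3, that in KO between 3 and 5, and that between OE and KO between 7 and 10. *Actn1*, at a ratio of 1.96, passed 2-fold in OE when scaled to total gene reads. *Myl9* was no longer 2-fold apart between OE and KO under the housekeeping list or TMM factors, which left 8 genes. With no minimum level, *Actg2* counted as higher in KO on 1 read against 0. A minimum set on KO and WT alone, chosen after seeing the data, removed *Actc1* and left 7 genes in OE and 3 in KO. A housekeeping list without *Actb* and *Hprt*, also chosen after seeing the data, gave 8 and 4. The median log2 ratio ran from 2.49 to 2.66 in OE and from -0.98 to -0.74 in KO. No paired analysis was possible because each condition has 1 library and no test was made. With 1 library per condition no replicate could be left out, and differences between cultures of one line cannot be told apart from those between conditions. Depth limits *Actg2* and the KO values of *Acta1* and *Actc1*, which rest on 1, 14 and 4 reads.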

Other observations

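Regulators of heart and skeletal muscle were mostly at a few reads. Of 12 genes, 6 averaged 10 or more normalised counts. Of these, 3 lay 2-fold or more above WT in OE (12.0% of all genes at this level, list median log2 ratio 1.34): *Hand1*, a transcription factor of heart and trophoblast, at 4.93-fold (4.04 to 6.06), *Nkx2-5*, a heart factor, with 37 reads in OE against 8 in WT, and *Mef2c*, a muscle factor, with 60 against 21. *Nkx2-5* reached the mean of 10 only through the OE library. *Tbx20* had a ratio of 2 in OE (1.69 to 2.36) and *Gata4* of 1.37. *Isl1*, a factor of cardiac progenitors, was the only one of the 6 at least 2-fold higher in KO (3.28, 1.76 to 6.50), against 4.77% of all genes. In KO 0 were 2-fold lower, against 4.09% of all genes, and the list median was -0.66. *Myod1*, the skeletal muscle determination factor, had 4 reads in KO, 3 in OE and 4 in WT, and *Myog*, *Myf5* and *Myf6* had at most 3 in any library.

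Endothelial markers lay on both sides of WT. Of 7 that averaged 10 or more among 8, *Flt1*, *Cdh5* and *Erg* lay 2-fold or more above WT in OE and *Pecam1* and *Tie1* below it (12.0% and 4.38% of all genes, list median 0.64). *Erg* reached the mean of 10 only through the OE library. In KO 0 of the 7 were 2-fold apart, against 4.77% of all genes higher and 4.09% lower, with a median of -0.57. Their summed level was 4085 normalised counts in KO, 2891 in OE and 3745 in WT. *Flt1*, a VEGF receptor gene also made by trophoblast, was 9.85-fold higher in OE (8.24 to 11.9), while *Pecam1*, which ESCs also express, had 3142 normalised counts in KO, 843 in OE and 2777 in WT. The KO ratio of *Flt1* was 0.499 (0.364 to 0.678), and only the pseudocount kept it from counting as 2-fold lower. *Esam* and *Tek* had ratios of 1.56 and 0.638 in OE. *Emcn* had 0 reads in all libraries. Among the 10 ESC markers the lowest OE ratios were those of *Esrrb* (0.574), *Zfp42* (0.599) and *Sox2* (0.613). *Klf4* had a ratio of 0.770 in OE and 0.673 in KO. The median log2 ratio of the 10 markers was -0.38 in OE and -0.11 in KO. Of 13 housekeeping genes 0 were 2-fold apart in either library, with medians of -0.01 in OE and 0.05 in KO. The shares over all genes were 12.0% higher and 4.38% lower in OE, and 4.77% higher and 4.09% lower in KO.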
